A study of Rattus norvegicus with 24 samples.

Results

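The dexamethasone response of the lung was compared with that of the liver in neonatal Sprague Dawley rats, as the lung change (dexamethasone against vehicle) minus the liver change. The comparison used 16 of the 24 libraries of the series, taken by the tissue and treatment in their titles, in 4 groups of 4: lung dexamethasone, lung vehicle, liver dexamethasone and liver vehicle. Wild-type pups had been injected subcutaneously once a day for 5 days from postnatal day 1, either with dexamethasone at 0.1 mg/kg or with the vehicle, 2.5% ethanol, and whole lung and liver were frozen at postnatal day 6, 24 hours after the last dose. The other 8 libraries, from lung and liver of pups given desisobutyryl ciclesonide at 1.25 mg/kg, were used to sort genes by tissue preference and as side-by-side values. The labels give neither sex nor litter, so each p-value measures only how far libraries of a group scatter. Whole tissue was sequenced, so fewer cells of a type and less RNA per cell cannot be told apart.

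Dexamethasone is a synthetic glucocorticoid. It binds the glucocorticoid receptor, a transcription factor present in most cells, and the genes the receptor reaches differ between cell types because chromatin is open at different places in each. In the newborn lung, glucocorticoids are known for hastening maturation of the surfactant system and for thinning the walls between airspaces, and in liver for driving glucose production and amino acid breakdown. The difference between the responses asks which genes answered the drug otherwise in one organ than in the other.

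Counts are given per Ensembl identifier, and the files and the gene table at hand do not pair these with gene names (0 of 30560 identifiers matched), so genes are described as groups by how they responded, with 4 identifiers in full. Tissue markers could not be looked up for the same reason. The libraries nonetheless separated by labelled tissue: Spearman correlations of log2 expression across genes lay between 0.580 and 0.670 for a lung against a liver library, and were at least 0.856 within lung and 0.867 within liver. Libraries held 15397992 to 27881158 gene counts. Lung dexamethasone replicates 3 and 4 stood apart: 25 identifiers, picked after their values were seen, had at least 2 CPM there (CPM, counts scaled to a common total, on TMM-scaled library sizes) and exceeded all remaining lung libraries by 4-fold or more. Only 4 of the 25 were expressed in both tissues and so enter the comparison, and none is among the identifiers given in full.

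The response to dexamethasone differed between lung and liver in 4048 of the 12873 genes that both tissues expressed, or 31.4%. The lung change lay above the liver change in 2220 genes (17.2%) and below it in 1828 (14.2%). The difference was at least 2-fold in 1415 genes above and 948 below, and its median size among the 4048 was 1.13 on the log2 scale. The call is an adjusted p under 0.05 in edgeR's quasi-likelihood test, with Benjamini-Hochberg adjustment over all genes tested. The split between the directions depended on scaling. Relative log expression size factors gave 2057 higher and 2032 lower, DESeq2 gave 2270 higher and 2292 lower, and the fit without a filter on low counts gave 2026 higher and 2149 lower. With library totals alone 2731 were higher and 1281 lower, a setting that also moved the median difference of all genes to 0.18, against 0.04 with TMM scaling. Without lung dexamethasone replicates 3 and 4, 3644 differences were called, 1960 higher and 1684 lower.

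Each tissue on its own responded to about the same extent in this fit. Over these 12873 genes the drug changed 6553 in lung (50.9%; 26.8% rose and 24.1% fell) and 6569 in liver (51.0%; 24.8% rose and 26.2% fell). The SD of the log2 changes across genes was 1.07 in lung and 1.13 in liver. The changes of the tissues were related across genes, with Pearson r = 0.52 over the 12873 genes, a description in which genes of the same libraries are not independent replicates. A gene's lung change was larger in size than its liver change in 48.8% of genes. The counts of changed genes depended on the method. With limma-voom 7246 were called in lung and 5872 in liver, and without lung dexamethasone replicates 3 and 4 the counts were 5732 and 6490. With library totals 2729 rose and 3688 fell in lung, and 1894 rose and 4919 fell in liver.

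**Figure D1:**
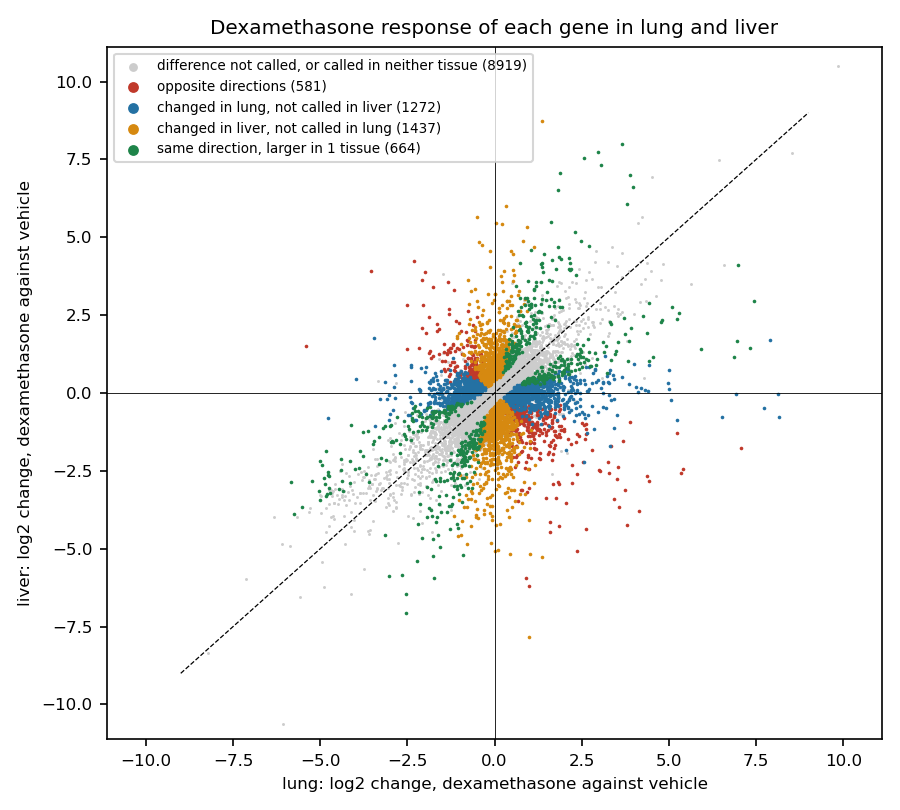
Log2 change with dexamethasone against vehicle in lung (x axis) and in liver (y axis), 1 point per gene of the 12873 tested; the dashed line marks equal changes. Colours show genes with a called difference that moved in opposite directions (581), changed in lung and were not called in liver (1272), changed in liver and were not called in lung (1437) or moved the same way with different size (664); all others are grey.

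Where both tissues responded, they mostly did so in the same direction. Of 3947 genes called in both tissues, 3366, or 85.3%, moved the same way, 1673 up and 1693 down, and 581 moved in opposite directions. For 2702 of the 3366 no difference in size was called, 1317 that rose in both tissues and 1385 that fell in both. The median log2 change of these risers was 0.84 in lung and 0.81 in liver, and that of the fallers was -0.99 in lung and -1.05 in liver. The shared risers took 14.9% ± 1.05 of gene counts in dexamethasone lung against 8.72% ± 0.150 in vehicle lung, and 12.4% ± 0.596 in dexamethasone liver against 6.15% ± 0.254 in vehicle liver (SD, n = 4 each). The shared fallers took 5.91% ± 0.492 in dexamethasone lung against 13.7% ± 0.198 in vehicle lung, and 1.87% ± 0.202 in dexamethasone liver against 4.23% ± 0.167 in vehicle liver. A difference that was not called is not evidence of equal responses. The 95% interval of the difference lay wholly within 1.5-fold either way for 380 of the 1317 risers (28.9%) and 253 of the 1385 fallers (18.3%).

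The lung and liver changes were opposite in sign for 581 genes, and more of these rose in lung and fell in liver (359) than the reverse (222). The size of this excess depended on the fit. It was 347 against 311 with all 24 libraries, 331 against 274 without the filter on low counts, and 450 against 170 with library totals. The 359 had a median log2 change of 0.94 in lung and -0.94 in liver, and a median difference of 2.02, with 184 genes at 4-fold or more. They took 4.07% ± 0.201 of gene counts in dexamethasone lung against 2.26% ± 0.107 in vehicle lung, and 1.44% ± 0.244 in dexamethasone liver against 3.21% ± 0.257 in vehicle liver (SD, n = 4 each). The 222 that fell in lung and rose in liver changed less, with medians of -0.63 in lung and 0.76 in liver, and 64 genes at 4-fold or more. They took 1.26% ± 0.0755 in dexamethasone lung against 2.18% ± 0.0524 in vehicle lung, and 3.20% ± 0.0776 in dexamethasone liver against 1.95% ± 0.0484 in vehicle liver. Shares are descriptions, since the same libraries sorted the genes into these groups. In liver a few abundant genes carried them: the 10 most abundant members held 60.9% of the first group's counts in dexamethasone liver and 66.3% of the second's, against 30.4% and 42.4% in dexamethasone lung. Counts were also more concentrated in liver among the 8825 genes without a called difference. The 10 most abundant of that larger set held 41.4% of its counts in dexamethasone liver and 6.58% in dexamethasone lung.

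Among called genes whose higher group averaged 5 CPM or more in lung and likewise in liver, with no overlap between treatments where a tissue's change was called, the 2 highest and the 2 lowest differences are given by identifier. ENSRNOG00000028896 was abundant in liver and nearly silent in vehicle lung. It passed the filter on low counts in lung only through dexamethasone libraries, which favours a rise there. It stood at 18.3, 37.1, 12.2 and 25.4 CPM in dexamethasone lung replicates 1 to 4, against 0.0314, 0, 0.631 and 0.0564 CPM in vehicle lung. In liver it stood at 795, 592, 601 and 765 CPM with dexamethasone, against 2324, 3036, 2362 and 1680 CPM with vehicle. Dexamethasone libraries were all higher in lung and all lower in liver, and such a lack of overlap was a condition of being named. The log2 change was 7.06 (SE 0.60) in lung and -1.77 (SE 0.39) in liver, a difference of 8.83 (SE 0.72, edgeR adjusted p = 3.75e-07). The vehicle lung level rests on 21 counts over 4 libraries, 18 of them in replicate 3, and without that replicate the difference was 11.1. With desisobutyryl ciclesonide, which was compared with the same vehicle libraries and at another dose, it stood at 2.68 ± 0.563 CPM in lung and 2740 ± 2132 CPM in liver (SD, n = 4 each).

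ENSRNOG00000008986 went the other way in both organs. It stood at 0.960, 1.42, 1.67 and 1.98 CPM in dexamethasone lung against 16.2, 16.8, 20.2 and 18.2 CPM in vehicle lung. In liver it stood at 188, 198, 79.2 and 143 CPM with dexamethasone against 8.66, 11.1, 12.7 and 7.37 CPM with vehicle. That no dexamethasone library reached into the vehicle range in either tissue was again a condition of being named. Within each numbered pair the lung level was above the liver level with vehicle and below it with dexamethasone. The log2 change was -3.55 (SE 0.28) in lung and 3.93 (SE 0.27) in liver, a difference of -7.48 (SE 0.39, edgeR adjusted p = 1.82e-09). Desisobutyryl ciclesonide libraries held 5.16 ± 0.795 CPM in lung and 14.7 ± 3.25 CPM in liver (SD, n = 4 each).

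ENSRNOG00000003209 also fell in lung and rose in liver. Its dexamethasone lung libraries held 0.166, 0.729, 2.65 and 4.85 CPM, against 13.6, 10.9, 10.4 and 7.65 CPM in vehicle lung. Its dexamethasone liver libraries held 35.0, 23.4, 20.2 and 18.4 CPM, against 1.57, 0.259, 1.39 and 1.87 CPM in vehicle liver. It passed the filter on low counts in liver only through dexamethasone libraries, which favours a rise there. Dexamethasone lung replicates 3 and 4, the libraries that stood apart, were the highest of their group. They still lay below every vehicle lung library, as the naming rule required. The difference was -6.56 (SE 0.93, edgeR adjusted p = 8.04e-05), made of -2.31 (SE 0.60) in lung and 4.25 (SE 0.70) in liver. Without lung dexamethasone replicate 4 it was -7.39, and without replicates 3 and 4 it was -8.86. Desisobutyryl ciclesonide libraries held 6.09 ± 1.52 CPM in lung and 0.908 ± 0.658 CPM in liver (SD, n = 4 each).

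ENSRNOG00000010079 fell in liver, and its lung libraries scattered. In liver it had 0, 1, 1 and 1 counts with dexamethasone, at most 0.112 CPM, against 17.9, 18.7, 19.2 and 16.6 CPM with vehicle. The liver ratio, vehicle over dexamethasone, was 247 (806 counts against 3 with dexamethasone; 95% counting interval 84.3 to 1201, which covers counting error only). In lung it held 0.894, 2.07, 57.8 and 157 CPM with dexamethasone, against 15.0, 14.4, 74.3 and 6.01 CPM with vehicle. The lung groups overlapped, with dexamethasone replicates 3 and 4 and vehicle replicate 3 far above the rest. The difference was 8.83 (SE 2.70, edgeR adjusted p = 0.0246) and rested on those dexamethasone libraries: without lung dexamethasone replicates 3 and 4 it was 3.61 (adjusted p = 0.129). The call was also lost without liver dexamethasone replicate 2 (adjusted p = 0.0513) or 3 (adjusted p = 0.0546), with limma-voom (adjusted p = 0.286), and with the pup as a random block (adjusted p = 0.262). Over all alternatives the adjusted p ranged from 1.29e-05 to 0.286. Desisobutyryl ciclesonide libraries held 15.5 ± 6.99 CPM in lung and 36.6 ± 24.2 CPM in liver (SD, n = 4 each).

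**Figure D2:**
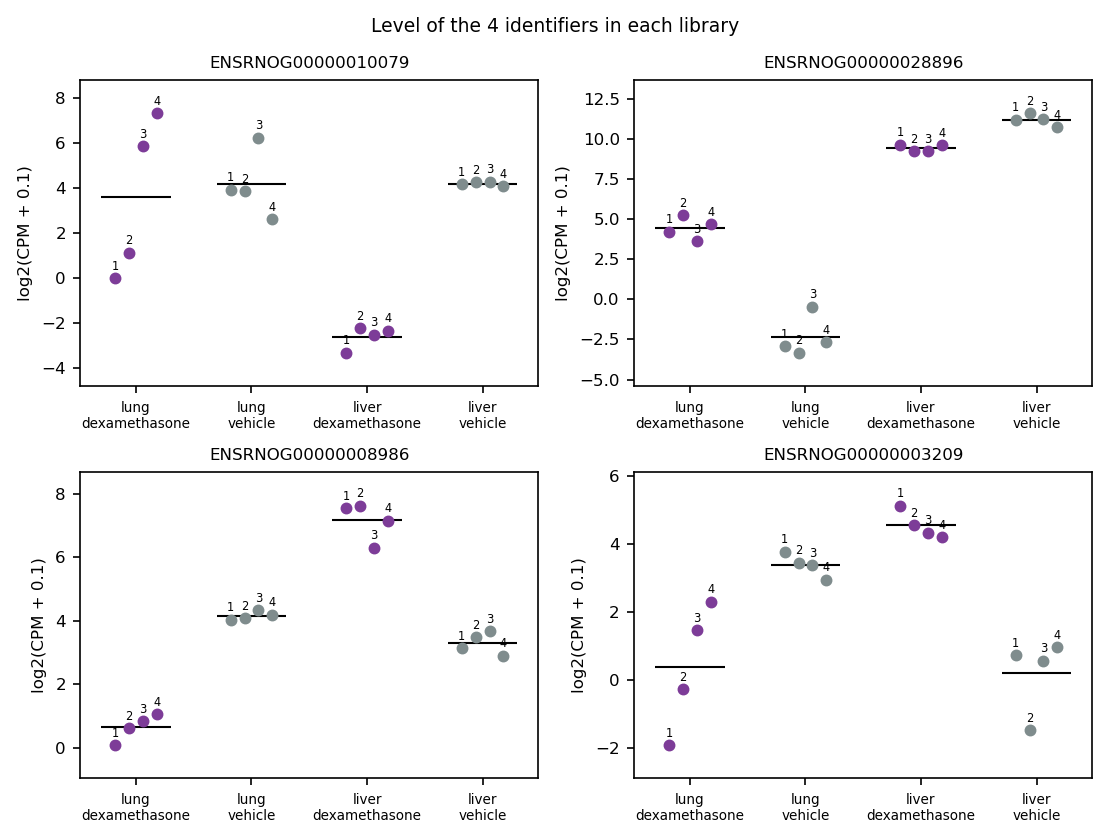
Level of the 4 identifiers as log2(CPM + 0.1) in each library; numbers beside the points are replicate numbers and bars are means of 4 libraries. ENSRNOG00000028896 is higher with dexamethasone in lung and lower in liver, and ENSRNOG00000008986 and ENSRNOG00000003209 are lower in lung and higher in liver. ENSRNOG00000010079 is near 0 CPM in dexamethasone liver, at the bottom of its panel, with widely spread lung libraries.

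The larger part of the differences came from genes called in one tissue only. In lung, 2606 genes changed that were not called in liver, and for 1272 of them (48.8%) the difference itself was called. In liver, 2622 changed that were not called in lung, and for 1437 (54.8%) the difference was called. For the remaining genes of these sets, a call in one tissue and none in the other did not amount to a called difference. In the 1272, 757 rose in lung and 515 fell, and in the 1437, 716 rose in liver and 721 fell. The lung split depended on the fit. With all 24 libraries 702 rose and 721 fell, and without the filter on low counts 669 rose and 663 fell. With library totals 769 rose and 407 fell. The interval of the change in the tissue without a call lay wholly within 1.5-fold for 50.5% of the 757, 53.6% of the 515, 54.9% of the 716 and 44.1% of the 721.

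Genes called in lung and not in liver were next. The 757 that rose had a median log2 change of 1.04 in lung and -0.04 in liver. They took 8.83% ± 0.451 of gene counts in dexamethasone lung against 4.77% ± 0.132 in vehicle lung, and 8.59% ± 1.20 in dexamethasone liver against 10.9% ± 0.263 in vehicle liver (SD, n = 4 each). Their share in liver was lower with dexamethasone without overlap (6.87% to 9.52%, against 10.7% to 11.2% with vehicle), although no member was called there. Shares are not TMM-scaled as the calls are. With library totals alone, the median liver log2 change of all genes tested was -0.27, against -0.01 with TMM scaling. The 10 most abundant members held 21.5% of the group's counts in dexamethasone lung and 72.7% in dexamethasone liver. The 515 that fell had medians of -0.87 in lung and 0.07 in liver. They took 2.25% ± 0.192 in dexamethasone lung against 4.54% ± 0.0458 in vehicle lung, while their share in liver was 1.95% ± 0.0601 with dexamethasone and 1.98% ± 0.0419 with vehicle.

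Among genes called in liver and not in lung, few carried most of the counts of those that rose. The 10 most abundant of the 716 held 60.7% of the group's counts in dexamethasone liver and 62.1% in vehicle liver. The 716 that rose had medians of 0.93 in liver and -0.06 in lung. They took 14.4% ± 1.47 of gene counts in dexamethasone liver against 8.25% ± 0.386 in vehicle liver, and 6.34% ± 0.431 in dexamethasone lung against 7.37% ± 0.497 in vehicle lung (SD, n = 4 each). The 721 that fell had medians of -1.20 in liver and 0.07 in lung. They took 1.62% ± 0.127 in dexamethasone liver against 5.11% ± 0.598 in vehicle liver, and 6.71% ± 0.889 in dexamethasone lung against 7.31% ± 0.676 in vehicle lung. The split between risers and fallers depended on scaling. When libraries were scaled by their totals, 429 genes rose and 1060 fell in liver without a call in lung.

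The remaining called differences were of degree. Dexamethasone moved 299 genes the same way in both tissues but further in lung and 365 further in liver. Of the 299, 164 rose, with medians of 1.84 in lung and 0.74 in liver, and 135 fell, with medians of -2.19 in lung and -0.94 in liver. Of the 365, 192 rose, with medians of 0.84 in lung and 2.00 in liver, and 173 fell, with medians of -0.89 in lung and -2.07 in liver. Which tissue had more such genes depended on lung dexamethasone replicates 3 and 4. Without both, 324 genes moved further in lung and 206 further in liver. Without replicate 3 alone the counts were 325 and 285. A further 94 genes differed between the tissues without a call in either, and 174 did so with the pup as a random block.

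**Figure D3:**
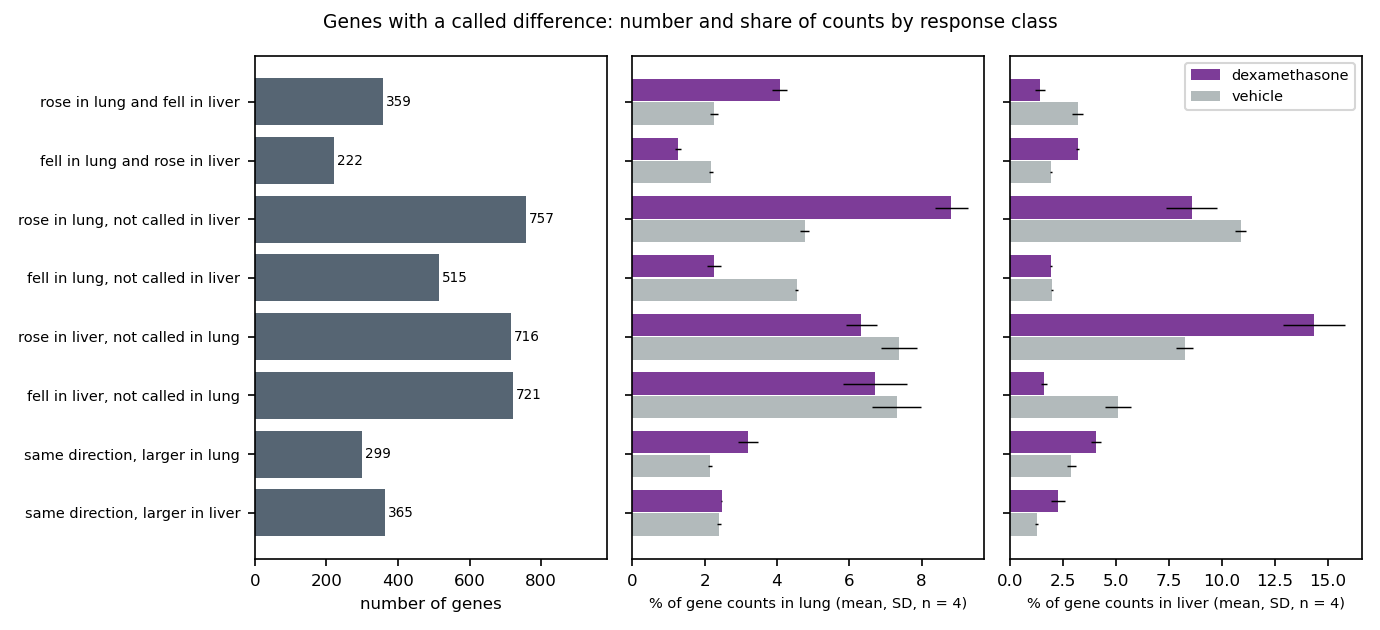
Genes with a called difference in 8 response groups. Left, number of genes; middle and right, percent of all gene counts they took in lung and in liver with dexamethasone (purple) and vehicle (grey), as mean and SD of 4 libraries. The 716 genes that rose in liver and were not called in lung reached 14.4% of counts in dexamethasone liver against 8.25% in vehicle liver.

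Genes were sorted by their lung to liver ratio in the 8 desisobutyryl ciclesonide libraries, which do not enter the contrast but come from treated pups. A difference was called in 165 of 303 genes at least 16-fold higher in liver (54.5%, against 31.4% of all genes tested). The share was 47.2% for genes 4 to 16-fold higher in liver and 44.5% for those at least 16-fold higher in lung, and the groups were not tested against each other. The lung change was above the liver change in 130 of these and below it in 35, with a median difference of 0.75, against 0.04 over all genes tested. In lung 136 of the 303 rose and 44 fell (median log2 change 0.65), and in liver 78 rose and 97 fell (median -0.04). The expression minimum could be met through dexamethasone libraries alone, which favours rises. With the filter applied to vehicle libraries alone, 80 of 215 were higher and 29 lower (median 0.53). Of the 303, 30 (9.90%) rose in lung and fell in liver, against 2.79% of all genes tested, and 8 (2.64%) did the reverse, against 1.72%.

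Among genes with lung preference, the direction depended on how the most lung-preferring were sorted. Of 281 genes at least 16-fold higher in lung, 74 had a higher and 51 a lower change in lung than in liver, with a median of 0.18. With the filter on vehicle libraries alone, 64 were higher and 26 lower of 203 (median 0.40), and without lung dexamethasone replicates 3 and 4, 69 were higher and 50 lower (median 0.07). With the groups set by vehicle libraries instead, 30 were higher and 59 lower of 209 (median -0.46). Vehicle libraries enter the contrast, and their error then moves both the sorting and the difference. Sorting by desisobutyryl ciclesonide libraries is not neutral either. Genes that both drugs move are then sorted by their treated levels. Of 1089 genes 4 to 16-fold higher in lung, 263 were higher and 162 lower (median 0.25), and the median lay between 0.07 and 0.31 under the same 3 alternatives. Of 10409 genes within 4-fold between the tissues, 1542 were higher and 1418 lower (28.4% called, median 0.02).

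**Figure D4:**
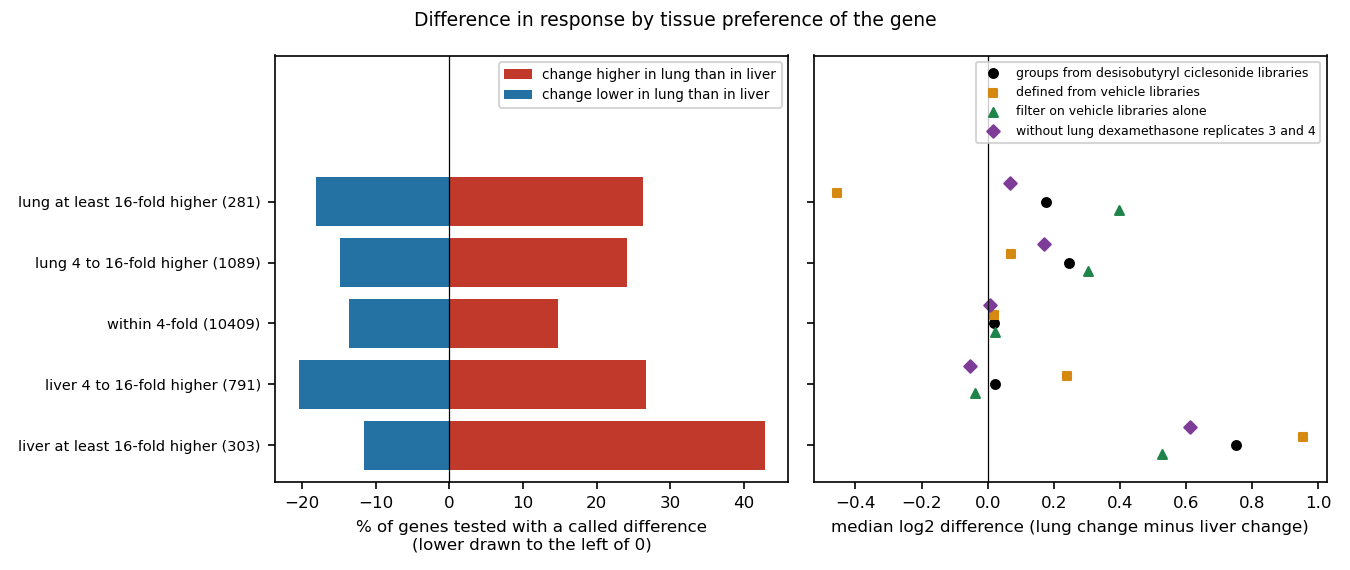
Left, percent of tested genes with a called difference in 5 groups by lung to liver ratio (number tested in brackets), drawn right of 0 where the lung change was above the liver change and left where below. Right, median log2 difference of each group, with the groups set by desisobutyryl ciclesonide libraries (black) and under 3 alternatives; the liver-preferring group at 16-fold or more lies above 0 in all 4, and the lung-preferring group at 16-fold or more falls on both sides.

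Measures of how alike a pup's lung and liver were pointed different ways between treatments. Replicate numbers were taken to mark pups, which the labels do not state. The SD of the lung minus liver log2 difference across the 12873 genes was 2.02 ± 0.0649 in dexamethasone pups and 1.89 ± 0.0324 in vehicle pups (SD, n = 4 each). The values did not overlap between treatments (two-sided exact permutation test, p = 0.0286, which 4 against 4 cannot go below; over 10 measures the adjusted p was 0.0571, and with 5 measures at that smallest p it could not be lower). Over genes with at least 10 CPM in each tissue the SD was 1.46 ± 0.0725 in dexamethasone pups and 1.35 ± 0.0250 in vehicle pups, also without overlap (exact permutation p = 0.0286, adjusted p = 0.0571). The Spearman correlation between a pup's lung and liver was 0.662 ± 0.00317 with dexamethasone and 0.657 ± 0.0107 with vehicle, which overlapped (exact permutation p = 0.457, adjusted p = 0.571). Pearson's correlation was 0.636 ± 0.00516 with dexamethasone and 0.615 ± 0.00965 with vehicle without overlap (exact permutation p = 0.0286, adjusted p = 0.0571), so the SD and this correlation pointed opposite ways.

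The share of reads outside annotated features was 19.8% ± 0.931 in dexamethasone lung against 16.2% ± 0.556 in vehicle lung, and 11.5% ± 0.256 in dexamethasone liver against 10.5% ± 0.399 in vehicle liver (SD, n = 4 each). Within pups, lung exceeded liver by 8.35 ± 0.888 percentage points with dexamethasone and by 5.73 ± 0.781 with vehicle. These values did not overlap, and the test missed the threshold after adjustment (two-sided exact permutation p = 0.0286; adjusted over 10 measures, p = 0.0571). These reads stayed outside the gene counts, and their part in the differences between tissues was not tested.

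**Figure D5:**
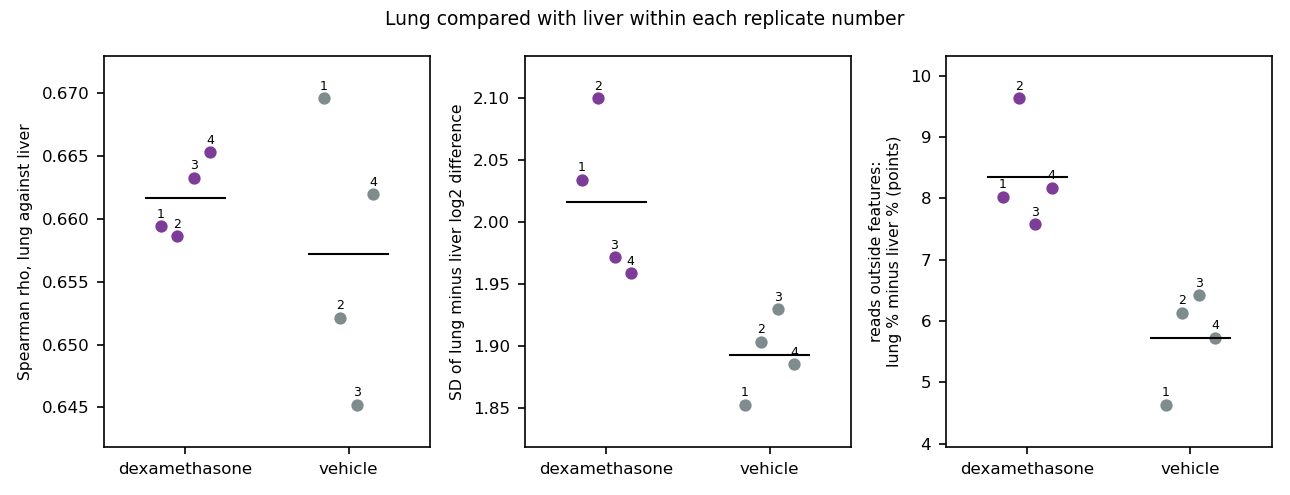
Spearman correlation between lung and liver, SD of the lung minus liver log2 difference across 12873 genes, and lung minus liver share of reads outside annotated features, 1 point per replicate number and treatment; bars are means of 4. The middle and right measures do not overlap between dexamethasone and vehicle, and the correlation does.

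Precision depended on level. For the 8825 genes whose difference was not called, the 95% interval had a median half-width of 0.55 on the log2 scale, and 1291 of them had an unadjusted p under 0.05. The share called was 26.4% among the 3219 genes of lowest mean level, with a median half-width of 1.02, and 36.3% among the 3218 of highest, with a median half-width of 0.40. The lung minus liver difference did not overlap between dexamethasone and vehicle pups in 3543 of the 4048 called genes, against 4475 of all 12873 tested (34.8%), where 31.4% were called. The same libraries gave the calls, so a high share among called genes was built in.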

How the data were processed

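Per the labels' protocols, RNA was extracted with Trizol, poly(A) RNA was selected and directional dUTP libraries were made. Per the submitters' processing notes, the authors used cutadapt, HISAT2, HTSeq and build mRatBN7.2; versions, annotation release and strand setting are not given in the sources used here, so overlapping and antisense genes are uncertain. The deposited files hold raw counts for 30560 identifiers and 5 summary rows (21.8% to 31.8% of entries in the 16 libraries), which were left out of library sizes and tests.

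The 12873 genes passing edgeR's default expression filter in the 8 lung and in the 8 liver libraries were scaled by TMM. A robust quasi-likelihood model with 1 mean per group was fitted (edgeR 4.0.16, R 4.3.3). It held no term for the pup, so lung and liver libraries with the same number entered as independent. Fits with a replicate block are among the alternatives. SEs are the size of the log2 value divided by the root of the F statistic. The fit pools the spread of both tissues; the median SD of log2 CPM was 0.235 in dexamethasone lung, 0.147 in vehicle lung, 0.290 in dexamethasone liver and 0.241 in vehicle liver. The test was tried on simulated data in which few genes changed, in dexamethasone lung alone, with independent libraries. That setting differs from these data, so it does not vouch for the counts given here.

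Members, lists and rules were chosen with earlier results of these data known. Identifiers given in full are the 2 highest and 2 lowest differences among called genes whose higher group averaged 5 CPM or more in lung and likewise in liver, and no overlap between treatments in each tissue with a call. For want of names, 32 gene lists were not used and no sequence is given. Deviations from the group mean correlated between the lung and the liver library with the same number in 8 of 8 pairs (r 0.120 to 0.337 across 12873 genes), and each lung library correlated best with its own number, so numbers were taken to mark pups, which the labels do not say. All 24 pairs of replicates differed by more than counting noise (lowest chi-square over its degrees of freedom 11.6). Alternatives were other scalings and filters, DESeq2 1.42.0, limma-voom (limma 3.58.1), all 24 libraries, a replicate block, a 1.5-fold minimum, genes sorted by vehicle libraries and leaving out each library.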

Additional observations from a re-analysis of the deposited data

Results flagged for a closer look

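The response differed between lung and liver in 4048 genes by the test of the difference itself. Among them were ENSRNOG00000010079 (log2 difference 8.83), ENSRNOG00000028896 (8.83), ENSRNOG00000008986 (-7.48) and ENSRNOG00000003209 (-6.56).

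Lung vehicle replicate 3 stood apart from the other vehicle lung libraries in 3 values: ENSRNOG00000010079 at 74.3 CPM, ENSRNOG00000028896 at 0.631 CPM, and a share of 8.11% of gene counts in the genes that rose in liver and were not called in lung. Without it the difference of ENSRNOG00000010079 was 10.05 and that of ENSRNOG00000028896 was 11.1. Liver vehicle replicate 2 had 2.998% of its reads in the ambiguous category, above the other vehicle liver libraries. Chance marks about 1 in 20 groups in this way. The rule was run on many groups, over the identifiers given in full, pup measures, response groups and library measures. Some marks by chance are therefore likely.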

How the results depend on the processing

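Of 325 values of 12 counts under alternatives, 310 lay within 1.5 times the count reported. The count of differing genes was 3537 to 4075 when each library was left out in turn, 4562 with DESeq2 and 4459 with the replicate block (3896 shared with the 4048), which changed none of the calls of the 4 identifiers; the change within 1 tissue cannot be estimated with the pup as a fixed block, so the response groups have no value there. The pup as a random effect, added after the data were seen, gave 4479 differing genes and 174 called in neither tissue. A minimum of 1.5-fold gave 1726 differing genes, 2700 changed in lung and 2905 in liver. The response groups then held 81 and 37 (opposite: up in lung, down in lung), 365 and 160 (called in lung, not in liver: up, down), 305 and 413 (called in liver, not in lung: up, down), 41 and 70 (same direction: larger in lung, larger in liver) and 254 genes called in neither tissue. Library totals gave 429 genes rising and 1060 falling in liver that were not called in lung. Without lung dexamethasone replicates 3 and 4, 206 genes moved further in liver and 324 further in lung. All 24 libraries gave 2169 higher and 2355 lower differences. For genes of at least 10 CPM the difference in the Spearman correlation between a pup's lung and liver, dexamethasone minus vehicle, changed sign to -0.0036. ENSRNOG00000028896 and ENSRNOG00000003209 did not pass the filter on vehicle libraries alone, and their calls held under their other 27 alternatives each, as did that of ENSRNOG00000008986 under 28. The causes were not tested.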
